A study of Mus musculus with 18 samples.

Results

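The genes described here are 10 fast-responding transcription and signalling genes, Fos, Fosb, Jun, Junb, Jund, Egr1, Egr2, Egr3, Ier2 and Dusp1. They were chosen by name, as the rows of the count tables that carry these symbols, and all 10 were found among the 23930 genes of the panel and passed the filter on low counts. RNA was measured with a targeted amplicon panel, which reads 1 short stretch of each transcript, in CD4 and CD8 T cells sorted from mouse bone marrow. There were 3 kinds of mice, with 3 mice each according to the series' design, and 18 libraries in 6 groups of 3. Zinc-fed pMT-10 mice drank zinc-enriched water for 30 days. pMT-10 mice without zinc drank control water for 30 days, and zinc-fed C57BL/6 mice drank zinc-enriched water for 30 days. In pMT-10 mice an added Il10 gene stands behind a metallothionein promoter, a zinc-responsive promoter that is not specific to T cells, and the C57BL/6 mice carry no such transgene. Mouse ages are not stated in the labels. The comparisons ask how induced IL-10 in the mouse is reflected in these genes in each T cell type, with 1 control group for zinc and another for strain.

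Immediate early genes are switched on within minutes of a stimulus from transcription factors already present in the cell, and their transcripts and proteins are short-lived. The Fos and Jun families pair through leucine zippers to form AP-1, while the Egr family are zinc-finger factors induced by T cell receptor signalling through calcium and the MAP kinase pathway. Ier2 is an early-induced nuclear protein, and Dusp1 is a phosphatase that switches MAP kinases off. In T cells AP-1 acts with NFAT at cytokine genes, and Egr2 and Egr3 are known for restraining activation. Several of these genes are also known to respond to cell handling, such as dissociation and sorting.

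Libraries held 10546798 to 18519474 counts, and 11316 genes passed the filter. Levels are given as CPM, read counts scaled to a common library size after TMM normalisation. With 1 amplicon per gene they are compared for a gene across libraries and never between genes. The sort labels held: the summed level of Cd4 and Zbtb7b was 2.24 to 8.58 CPM in CD8 libraries and 1830 to 3523 CPM in CD4 libraries, and that of Cd8a and Cd8b1 was 3512 to 5218 CPM in CD8 libraries and 19.9 to 45.5 CPM in CD4 libraries. The 12 libraries from mice on zinc were run on the chip labelled A and the 6 from pMT-10 mice on control water on the chip labelled B, so the effects of chip and of zinc cannot be told apart. Y-linked genes had 0 to 8 reads in each pMT-10 library and 2866 to 5188 in each C57BL/6 library, so sex and strain cannot be told apart either.

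RefSeq promoter windows of build GRCm38.p6 were available for 7 of the 10 genes, and those of Egr2, Fos, Dusp1 and Jun are shown because these genes differ most clearly in how they behaved. Each begins 250 bases before the annotated start site and is written 5′ to 3′ along the gene. It runs up to that site or to the first base of an annotated exon, which ends the Dusp1 stretch after 203 bases. Positions below are counted from the start site. Capitals mark matches, on either strand, to the cyclic AMP response element TGACGTCA, its half-site TGACG, the AP-1 site TGANTCA, the CArG box that serum response factor binds, the Egr site GCGNGGGCG or the GAS site TTCNNNGAA of STAT factors.
Egr2, chr10:67537619-67537868, plus strand: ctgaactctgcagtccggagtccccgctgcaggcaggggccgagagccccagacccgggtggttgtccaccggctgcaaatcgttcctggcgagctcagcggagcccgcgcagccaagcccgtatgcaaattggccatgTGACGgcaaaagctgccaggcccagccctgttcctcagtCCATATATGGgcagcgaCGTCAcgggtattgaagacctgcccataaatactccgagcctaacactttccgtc
Fos, chr12:85473640-85473889, plus strand: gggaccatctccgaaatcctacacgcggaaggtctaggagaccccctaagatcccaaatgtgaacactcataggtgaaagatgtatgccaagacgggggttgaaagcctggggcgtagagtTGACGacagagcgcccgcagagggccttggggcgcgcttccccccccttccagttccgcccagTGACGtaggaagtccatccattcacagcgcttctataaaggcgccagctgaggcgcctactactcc
Dusp1, chr17:26508520-26508722, minus strand: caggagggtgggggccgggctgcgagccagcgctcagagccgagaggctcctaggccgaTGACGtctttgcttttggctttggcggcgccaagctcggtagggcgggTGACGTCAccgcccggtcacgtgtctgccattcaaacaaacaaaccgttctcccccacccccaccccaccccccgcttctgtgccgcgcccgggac
Jun, chr4:95052223-95052472, minus strand: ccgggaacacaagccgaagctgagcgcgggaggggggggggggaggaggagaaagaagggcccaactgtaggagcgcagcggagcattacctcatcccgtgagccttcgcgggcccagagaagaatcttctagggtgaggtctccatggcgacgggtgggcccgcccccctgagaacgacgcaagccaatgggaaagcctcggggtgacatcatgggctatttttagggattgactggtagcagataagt
In Egr2 the CArG box began 72 bases before the start site, between half-sites at 111 and 55 bases. Fos had half-sites at 129 and 66 bases. Dusp1 had a full cyclic AMP response element at 143 bases, which by its letters also holds the half-site on both strands, and a separate half-site at 191 bases. The Jun window held no match to any of the 6 patterns, which says only that these letters do not occur there. Among all 32851 mouse windows of 300 bases, 1.63% held a CArG box, 1.79% the full element and 20.8% the half-site, which 5 of the 7 windows of these genes held.

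In CD4 cells the Egr genes rose and Ier2 fell under induced IL-10, against both control groups. A gene was called when its Benjamini-Hochberg adjusted p, taken across the 11316 genes, was under 0.05. By this rule 5 of the 10 genes were called against zinc-fed C57BL/6 mice, where 18.7% of all genes were called, with 3 higher, beside 9.29% of all genes, and 2 lower, beside 9.4%. Against pMT-10 mice without zinc 4 of the 10 were called, where 18.8% of all genes were, with 3 higher, beside 9.38%, and 1 lower, beside 9.4%. The median log2 fold change over the 10 genes was -0.55 against C57BL/6 and -0.10 against pMT-10 without zinc, beside -0.05 over all genes in both. Both comparisons use the same zinc-fed pMT-10 libraries, so their values are given side by side and are not independent of each other.

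**Figure D1:**
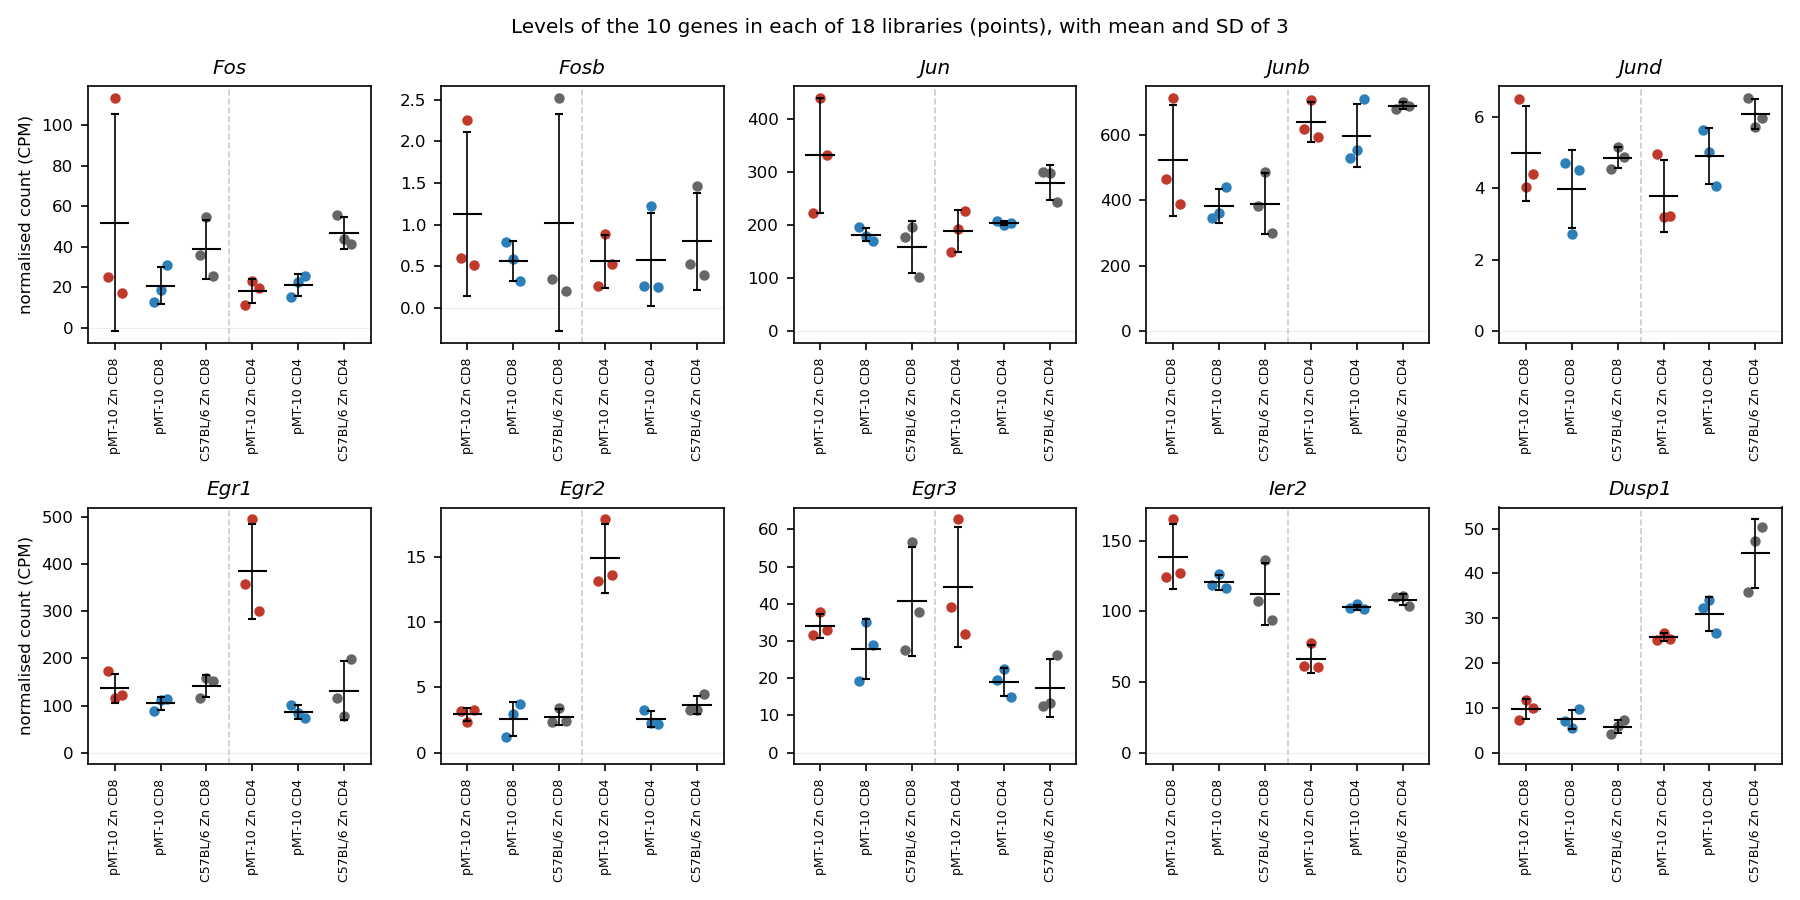
Level of each of the 10 genes (CPM, linear axis, a separate scale per gene) in the 6 groups, with CD8 groups left of the dashed line and CD4 groups right of it; points are libraries, bars the mean and SD of 3. Egr1 and Egr2 stand apart in the zinc-fed pMT-10 CD4 libraries, at 299.8 to 496 CPM and 13.1 to 17.9 CPM, and Dusp1 separates the CD4 from the CD8 libraries in every kind of mouse.

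Egr1, the early zinc-finger factor of the family, had 359, 496 and 299.8 CPM in the CD4 libraries of zinc-fed pMT-10 mice, against 102, 83.3 and 73.7 CPM without zinc and 117, 78.6 and 199.7 CPM in C57BL/6. Every zinc-fed pMT-10 library lay above all 6 controls, and C57BL/6 replicate 3 was the highest of the controls. The log2 fold change was 2.16 (SE 0.27, adjusted p = 1.01e-05) against pMT-10 without zinc and 1.55 (SE 0.26, adjusted p = 0.000276) against C57BL/6.

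Egr2, which limits T cell activation and induces inhibitory genes, had 13.1, 17.9 and 13.6 CPM in zinc-fed pMT-10 CD4 libraries, against 3.29, 2.29 and 2.16 CPM without zinc and 3.27, 3.24 and 4.48 CPM in C57BL/6. The lowest of the zinc-fed pMT-10 libraries was above the highest control by a wide margin. These values rest on 182 to 202 reads per library there and on 34 to 57 in the CD4 control libraries. Egr2 had the largest log2 fold change of the 10 genes in both comparisons, 2.52 (SE 0.41, adjusted p = 0.00013) against pMT-10 without zinc and 2.02 (SE 0.40, adjusted p = 0.00102) against C57BL/6.

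Egr3, which shares many functions with Egr2, had 39.0, 62.7 and 32.0 CPM in zinc-fed pMT-10 CD4 libraries, against 19.5, 22.5 and 15.02 CPM without zinc and 12.5, 13.4 and 26.3 CPM in C57BL/6. Here too no library overlapped with a control, although C57BL/6 replicate 3 came near. The log2 fold change was 1.23 (SE 0.31, adjusted p = 0.00764) against pMT-10 without zinc and 1.36 (SE 0.31, adjusted p = 0.00401) against C57BL/6. Without replicate 2 of the zinc-fed pMT-10 CD4 libraries, the one at 62.7 CPM, the value against pMT-10 without zinc was 0.90 and the adjusted p 0.0522.

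Ier2 went the other way. It had 61.0, 77.6 and 60.3 CPM in zinc-fed pMT-10 CD4 libraries, against 103, 105 and 101 CPM without zinc and 110, 111 and 104 CPM in C57BL/6. The control libraries lay close together and all above the zinc-fed pMT-10 ones. The log2 fold change was -0.64 (SE 0.15, adjusted p = 0.00455) against pMT-10 without zinc and -0.71 (SE 0.15, adjusted p = 0.00197) against C57BL/6.

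Dusp1 had 25.1, 26.8 and 25.2 CPM in zinc-fed pMT-10 CD4 libraries, against 32.2, 34.0 and 26.6 CPM without zinc and 35.8, 47.2 and 50.4 CPM in C57BL/6. It fell against C57BL/6, with a log2 fold change of -0.79 (SE 0.23, adjusted p = 0.0192), and the call was lost, with adjusted p from 0.0679 to 0.0827, when any of 4 libraries was left out, namely replicates 1 and 3 of zinc-fed pMT-10 and replicates 2 and 3 of C57BL/6. Against pMT-10 without zinc the groups overlapped and the log2 fold change was -0.27 (95% interval -0.75 to 0.21, adjusted p = 0.46).

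None of the 5 AP-1 genes passed the test in CD4 cells, and Fos and Jun lay lower in both pMT-10 groups than in C57BL/6. Fos, the inducible partner of Jun, had 11.6, 23.3 and 19.5 CPM in zinc-fed pMT-10 CD4 libraries, against 15.3, 22.9 and 25.5 CPM without zinc and 55.9, 43.8 and 41.2 CPM in C57BL/6. Both pMT-10 groups thus lay below all 3 C57BL/6 libraries and overlapped with each other. The log2 fold change of zinc-fed pMT-10 was -0.24 (95% interval -1.41 to 0.95, adjusted p = 0.82) against pMT-10 without zinc and -1.38 (95% interval -2.57 to -0.19, adjusted p = 0.103) against C57BL/6. In a fit to the 9 CD4 libraries alone the Fos difference from C57BL/6 was -1.35 with an adjusted p of 0.00116. With no filter on low counts it was -1.37 with an adjusted p of 1.94e-08. Of 5 alternative fits these 2 alone called it, and of 6 fits that left out 1 library 0 did. The main fit and the fit with no filter both use all 18 libraries, with CD8 libraries in which Fos ran from 13.04 to 114 CPM. The reason why the calls differ was not tested.

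Jun, the main DNA-binding partner of Fos, had 148, 192 and 226 CPM in zinc-fed pMT-10 CD4 libraries, against 208, 200.5 and 204 CPM without zinc and 299, 297 and 243 CPM in C57BL/6. The zinc-fed pMT-10 libraries lay below every C57BL/6 library, with a log2 fold change of -0.57 (SE 0.22) and an adjusted p of 0.08. The adjusted p was 0.0119 in the CD4-only fit and 0.0347 with scaling by library size alone. Of 5 alternative fits 3 called it, and of 6 fits that left out 1 library 0 did. Against pMT-10 without zinc the log2 fold change was -0.11 (95% interval -0.57 to 0.35).

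Junb, which tempers Jun activity and is needed in several helper T cell subsets, averaged 639 ± 60.3 CPM in zinc-fed pMT-10 CD4 libraries, 597 ± 97.3 CPM without zinc and 688 ± 9.79 CPM in C57BL/6 (SD, n = 3 each), and its 95% intervals spanned 0 in both comparisons. Jund, a constitutive member of the family, averaged 3.79 ± 1.01, 4.90 ± 0.78 and 6.07 ± 0.42 CPM in the same order of groups, from 36 to 94 reads per library. Fosb, a Fos relative, had 4 to 23 reads in each CD4 library, and its 95% interval was as wide as -2.77 to 1.71 against C57BL/6. Without overlap between the groups were 8 of the 10 genes against C57BL/6, where 37.4% of all genes were, and 4 of the 10 against pMT-10 without zinc, where 43.3% were.

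**Figure D2:**
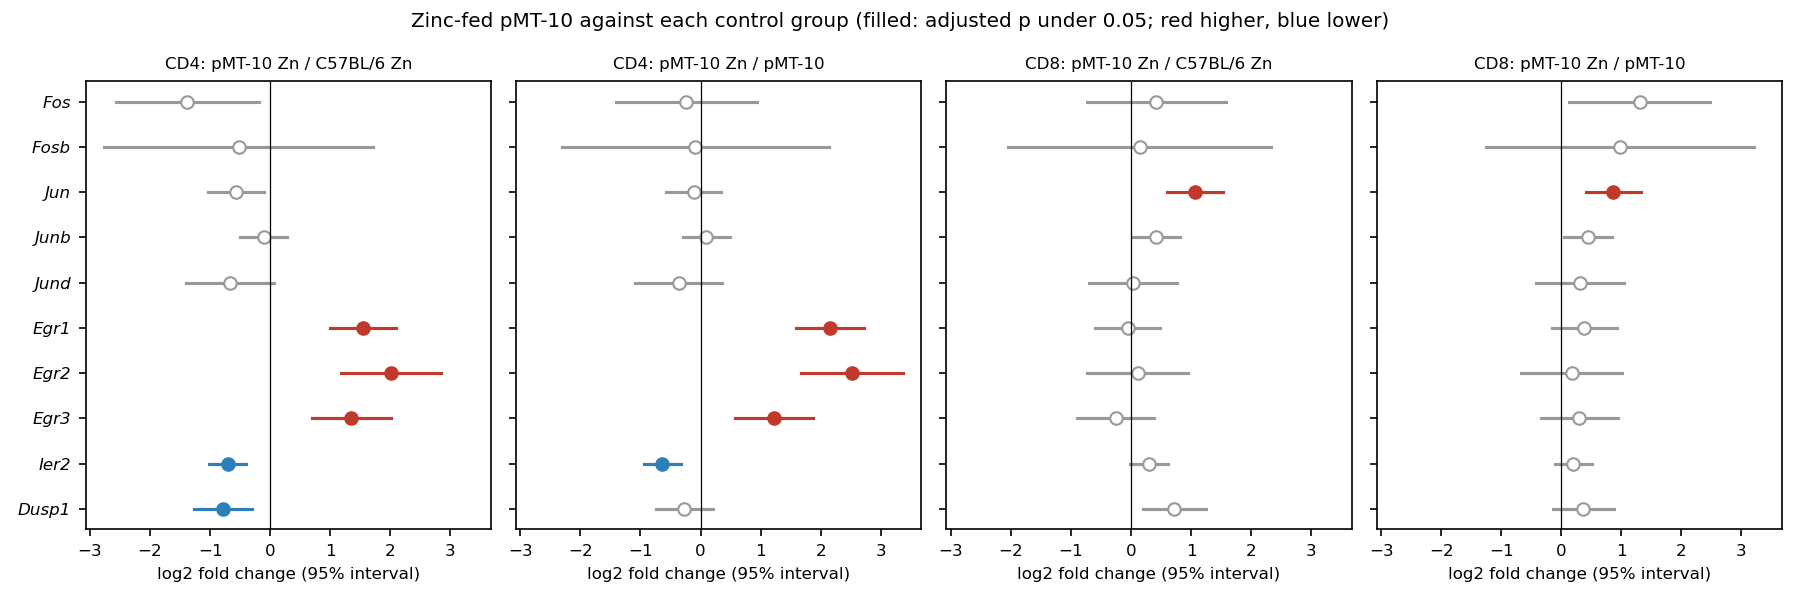
Log2 fold change of zinc-fed pMT-10 against each control, with its 95% interval, for the 10 genes in CD4 cells (left panels) and CD8 cells (right panels); filled points passed the threshold, red higher and blue lower. In CD4 cells the 3 Egr genes lie between 1.23 and 2.52, while in CD8 cells Jun alone is filled.

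Markers of T cells and of other cells moved with these groups. In CD4 libraries the 6 T cell markers summed to 6799 to 8049 CPM in zinc-fed pMT-10, against 4503 to 4631 CPM without zinc and 4719 to 5698 CPM in C57BL/6, with none at 0, 4 of the 6 called higher against pMT-10 without zinc and 3 of the 6 against C57BL/6. The 2 CD4 lineage markers summed to 3307 to 3523 CPM, against 1830.2 to 1925 and 2259 to 2415 CPM, and neither passed the test. In CD4 libraries the summed level of 6 monocyte and macrophage markers was 21.0 to 32.7 CPM in zinc-fed pMT-10, against 8.98 to 12 CPM without zinc and 7.46 to 9.96 CPM in C57BL/6, with Cd14 at 0 in the zinc-fed pMT-10 group and Fcgr1 at 0 in both control groups. The 5 B cell markers in the panel summed to 3.97 to 13.7 CPM, against 18.9 to 27.8 and 21.2 to 22.4 CPM, with Pax5 at 0 in all 3. The 3 NK cell markers summed to 6.44 to 15.9 CPM, against 178 to 201 and 40.6 to 52.3 CPM, with Ncr1 at 0 in the zinc-fed pMT-10 group. The 5 stroma and endothelium markers summed to 49.7 to 144 CPM, against 291 to 393 and 330 to 405 CPM, with Cdh5 at 0 in all 3. Lepr and Col1a1 were also at 0 in the zinc-fed pMT-10 group, and only 1 of the 5 passed the filter on low counts. In C57BL/6 CD8 libraries this sum was 322 to 398 CPM with Cdh5, Lepr, Col1a1 and Cxcl12 at 0, so there it was Pecam1 alone. It is therefore not a measure of stroma as a whole. One zinc-fed pMT-10 CD4 library held 156 CPM of platelet and megakaryocyte markers. The part of these shifts in the levels of the Egr, Jun and Fos genes was not tested. In sorted populations, fewer cells that carry a transcript and less of it per cell cannot be told apart.

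The control groups were set against each other to see how far strain, sex, zinc and chip together separate these genes. In CD4 cells edgeR called 0 of the 10 genes between pMT-10 mice without zinc and zinc-fed C57BL/6 mice, where 0.141% of all genes were called, DESeq2 also called 0, and 2 genes had an unadjusted p under 0.05. These were Egr1, with a log2 fold change of -0.61 (95% interval -1.15 to -0.07), and Dusp1, with -0.52 (95% interval -0.998 to -0.04). Fos, Jun, Jund and Dusp1 were lower in every pMT-10 library than in any C57BL/6 library, 4 of 10 genes without overlap beside 11.6% of all genes, and 4 lower without overlap beside 5.48%. In Fos the log2 fold change was -1.14 (95% interval -2.32 to 0.03), nearly as far from C57BL/6 as in the zinc-fed pMT-10 mice. In CD8 cells edgeR called 0 of the 10, where 0.0972% of all genes were called, DESeq2 also called 0, and no gene had an unadjusted p under 0.05. Without the filter on low counts Fos was called in both cell types, at log2 fold changes of -1.13 (adjusted p = 9.18e-05) in CD4 and -0.88 (adjusted p = 0.0156) in CD8 cells.

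In CD8 cells the picture was another one: Jun rose and the Egr genes did not pass the test. Against zinc-fed C57BL/6 mice 1 of the 10 genes was called, where 8.81% of all genes were, and against pMT-10 mice without zinc 1 of 10, where 7.74% were. In both it was Jun, which was higher, as were 5.68% and 5.1% of all genes. The median log2 fold change over the 10 genes was 0.22 against C57BL/6 and 0.37 against pMT-10 without zinc, beside a median of all genes within 0.01 of 0.

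Jun had 223, 439 and 332 CPM in zinc-fed pMT-10 CD8 libraries, against 195, 179.6 and 169.8 CPM without zinc and 177, 196 and 102 CPM in C57BL/6. All 3 zinc-fed pMT-10 libraries were above all 6 controls, though replicate 1 only narrowly. The log2 fold change was 1.07 (SE 0.22, adjusted p = 0.00362) against C57BL/6 and 0.87 (SE 0.22, adjusted p = 0.0167) against pMT-10 without zinc. The second call was lost without zinc-fed pMT-10 replicate 2 (0.62, adjusted p = 0.103), without pMT-10 replicate 2 (0.86, adjusted p = 0.0559) or replicate 3 (0.82, adjusted p = 0.0747), and in a fit to the CD8 libraries alone (0.88, adjusted p = 0.0508).

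Fos in CD8 cells turned on 1 library. It had 25.3, 114 and 17.1 CPM in zinc-fed pMT-10 CD8 libraries, against 13.04, 18.54 and 31.2 CPM without zinc and 36.2, 54.6 and 25.6 CPM in C57BL/6. The library at 114 CPM, replicate 2, held 1207 reads of Fos, and the other 2 lay within the range of the controls. The ratio of mean levels was 2.49 against pMT-10 without zinc and 1.34 against C57BL/6, and without that library 1.01 and 0.545. The adjusted p was 0.186 and 0.71.

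Fosb showed the same kind of spread at a much lower count, with 0.597, 2.26 and 0.512 CPM in zinc-fed pMT-10, against 0.786, 0.585 and 0.318 CPM without zinc and 0.343, 2.52 and 0.201 CPM in C57BL/6, all from 3 to 27 reads. Junb averaged 521 ± 170 CPM in zinc-fed pMT-10 CD8 libraries, 382 ± 51.9 CPM without zinc and 389 ± 93.9 CPM in C57BL/6 (SD, n = 3 each), with log2 fold changes of 0.45 and 0.42 and adjusted p of 0.174 and 0.188. Jund averaged 4.97 ± 1.32, 3.98 ± 1.09 and 4.86 ± 0.30 CPM.

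The Egr genes stood close together across the CD8 groups. Egr1 averaged 137 ± 31.0 CPM in zinc-fed pMT-10, 105 ± 13.8 CPM without zinc and 142 ± 23.0 CPM in C57BL/6 (SD, n = 3 each). The 95% intervals of its log2 fold change were -0.16 to 0.92 against pMT-10 without zinc and -0.59 to 0.49 against C57BL/6, both below the lowest bound in CD4 cells against the same control, 1.60 and 0.999. Egr2 averaged 2.93 ± 0.51, 2.61 ± 1.29 and 2.73 ± 0.63 CPM, and Egr3 34.1 ± 3.28, 27.8 ± 8.0 and 40.7 ± 14.7 CPM. Ier2 averaged 139 ± 23.0, 121 ± 5.27 and 112 ± 21.8 CPM, with 95% intervals of -0.11 to 0.51 against pMT-10 without zinc and -0.01 to 0.62 against C57BL/6.

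Dusp1 had 7.34, 11.8 and 9.95 CPM in zinc-fed pMT-10 CD8 libraries, against 7.08, 5.56 and 9.70 CPM without zinc and 4.20, 5.98 and 7.30 CPM in C57BL/6. All 3 were above C57BL/6, replicate 1 only just, with a log2 fold change of 0.72 (SE 0.25, adjusted p = 0.0763). Of 5 alternative fits DESeq2 alone called it (0.74, adjusted p = 0.047), and adjusted p in the others reached 0.253. Leaving out 1 library at a time gave a Dusp1 call in 1 of 6 fits. Groups without overlap were found for 2 of the 10 genes in each comparison, Jun and Dusp1 against C57BL/6, where 23.6% of all genes did not overlap, and Jun and Egr1 against pMT-10 without zinc, where 23.1% did not. In CD8 libraries the monocyte and macrophage markers summed to 14.9 to 34.1 CPM in zinc-fed pMT-10, 11.5 to 15.5 CPM without zinc and 3.95 to 14.6 CPM in C57BL/6, with Fcgr1 at 0 in all 3 groups. The B cell markers summed to 17.6 to 28.9 CPM in zinc-fed pMT-10, against 26.9 to 51.4 CPM without zinc and 33.6 to 45.1 CPM in C57BL/6, with Pax5 at 0 in all 3 groups. The NK cell markers summed to 28.9 to 56.0 CPM, against 54.9 to 99.8 and 60.8 to 89.8 CPM, with Ncr1 at 0 in the zinc-fed pMT-10 group. The part of these cells in the Jun level was not tested.

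Set against each other within each kind of mouse, CD8 cells held less Dusp1 than CD4 cells in all 3 kinds. Its log2 fold change, CD8 over CD4, was -1.41 (SE 0.24, adjusted p = 0.000158) in zinc-fed pMT-10 mice, -2.04 (SE 0.24, adjusted p = 2.00e-06) in pMT-10 mice without zinc and -2.92 (SE 0.25, adjusted p = 2.54e-08) in zinc-fed C57BL/6 mice, and no CD8 library reached any CD4 library of its own kind of mouse. Each mouse gave both cell types according to the design, but no label names the mouse of a library, so the libraries were treated as separate samples.

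In zinc-fed pMT-10 mice 5 of the 10 genes were called, where 28.1% of all genes were. Of all genes 13.4% were higher and 14.7% lower in CD8 cells. Jun and Ier2 were higher in CD8 cells, at log2 fold changes of 0.81 (SE 0.22, adjusted p = 0.00884) and 1.07 (SE 0.15, adjusted p = 2.22e-05). Egr1, Egr2 and Dusp1 were lower in CD8 cells, Egr1 at -1.49 (SE 0.26, adjusted p = 0.000249) and Egr2 at -2.34 (SE 0.41, adjusted p = 0.000189). The Jun call was lost without zinc-fed pMT-10 CD4 replicate 1 (adjusted p = 0.0668) or CD8 replicate 2 (adjusted p = 0.0762). Fos was 1.52 higher (95% interval 0.33 to 2.71, adjusted p = 0.0543), a ratio of means of 2.87 that became 1.17 without the library at 114 CPM. DESeq2 called the Fos difference (adjusted p = 0.0451), as did edgeR with scaling by library size alone (adjusted p = 0.0431) and with no filter on low counts (adjusted p = 2.70e-10). Of 6 alternative fits 4 called it, and adjusted p in the rest reached 0.164. Leaving out 1 library at a time gave a Fos call in 2 of 6 fits, with adjusted p up to 0.706.

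In the control mice the order of cell types was different for several genes. In pMT-10 mice without zinc 2 of the 10 genes were called, where 21.7% of all genes were, and 12.8% were lower. They were Dusp1 and Junb, the second lower in CD8 cells at -0.64 (SE 0.19, adjusted p = 0.0188) but with adjusted p of 0.0682 to 0.112 without CD8 replicate 1, CD8 replicate 2 or CD4 replicate 3. In zinc-fed C57BL/6 mice 4 of 10 were called, where 22.2% were, with 9.28% higher and 12.9% lower. Egr3 was higher in CD8 cells, at 1.22 (SE 0.31, adjusted p = 0.00716), while Jun and Junb were both lower, at -0.82 (SE 0.22, adjusted p = 0.0101) and -0.82 (SE 0.19, adjusted p = 0.00334), along with Dusp1. The Egr3 call was lost without C57BL/6 CD8 replicate 2 (adjusted p = 0.0549) and the Jun call without C57BL/6 CD8 replicate 3 (adjusted p = 0.0622).

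Jun thus ran from 223 to 439 CPM in CD8 and 148 to 226 CPM in CD4 libraries of zinc-fed pMT-10 mice, against 102 to 196 CPM in CD8 and 243 to 299 CPM in CD4 libraries of C57BL/6 mice. Ier2 ran from 124 to 165 CPM in CD8 and 60.3 to 77.6 CPM in CD4 libraries of zinc-fed pMT-10 mice, against 93.8 to 136 CPM in CD8 and 104 to 111 CPM in CD4 libraries of C57BL/6 mice. The log2 fold change over C57BL/6 was 1.07 in CD8 and -0.57 in CD4 cells for Jun, and 0.30 in CD8 and -0.71 in CD4 cells for Ier2. Of these 4 values, Jun in CD4 and Ier2 in CD8 cells did not pass the threshold.

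That difference was tested with an interaction contrast, the log2 change in CD8 cells minus that in CD4 cells. Against C57BL/6 mice 5 of the 10 genes were called, where 5.49% of all genes were, with 3.41% positive and 2.08% negative. It was positive for Jun (1.63, SE 0.31, adjusted p = 0.00515), Ier2 (1.01, SE 0.21, adjusted p = 0.00823) and Dusp1 (1.51, SE 0.34, adjusted p = 0.0125), and negative for Egr1 (-1.60, SE 0.37, adjusted p = 0.0145) and Egr3 (-1.61, SE 0.44, adjusted p = 0.0345). Egr2 stood at -1.91 (SE 0.57, adjusted p = 0.0511). It was called by DESeq2 (adjusted p = 0.0185), with DESeq2 size factors (adjusted p = 0.0496) and in a fit to the groups compared (adjusted p = 0.0436). These were 3 of 6 alternative fits, and adjusted p in the rest reached 0.11. Leaving out 1 library at a time gave an Egr2 call in 1 of 12 fits. The median over the 10 genes was 0.69, beside 0.05 over all genes.

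Against pMT-10 mice without zinc 3 of the 10 were called, where 3.78% of all genes were, with 2.44% positive and 1.34% negative. These were Egr1 (-1.78, SE 0.37, adjusted p = 0.0109), Egr2 (-2.35, SE 0.57, adjusted p = 0.0245) and Ier2 (0.84, SE 0.21, adjusted p = 0.0308), and Jun stood at 0.98 (SE 0.31, adjusted p = 0.082). DESeq2 called this Jun value (0.97, adjusted p = 0.0388), as did edgeR with scaling by library size alone (1.15, adjusted p = 0.0336). Of 6 alternative fits 4 called it, and of 12 fits that left out 1 library 1 did, with adjusted p up to 0.235. Leaving out 1 library at a time, over 12 libraries, ended the Egr3 call against C57BL/6 in 9 fits, and against pMT-10 without zinc ended the Ier2 call in 8 fits and the Egr2 call in 6. The signs of these 3 values held in each of those fits. Egr1 was called in all 12 fits against either control.

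**Figure D3:**
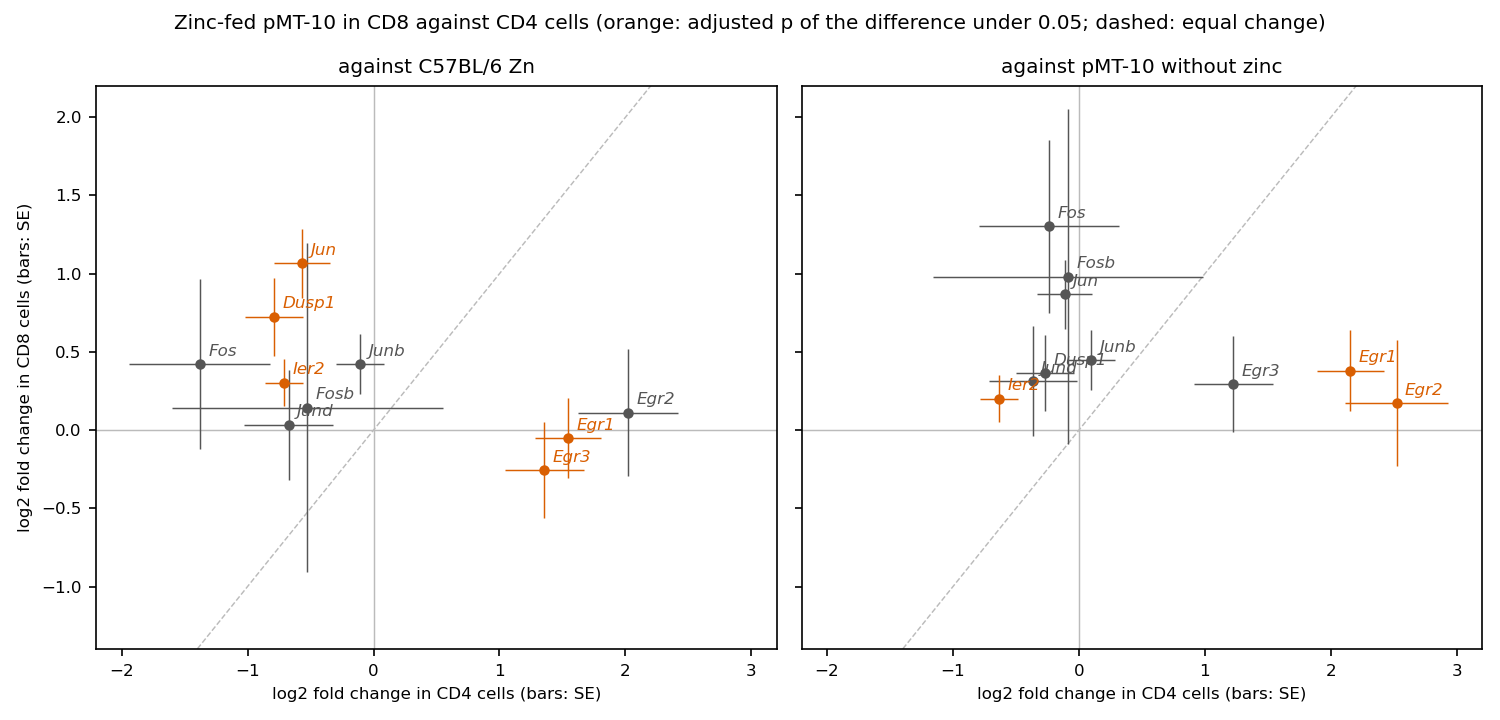
Log2 fold change of zinc-fed pMT-10 in CD8 cells (vertical axis) against that in CD4 cells (horizontal axis), with bars of 1 SE, for each control group; orange genes passed the test of the difference between cell types and the dashed line marks equal change. The Egr genes lie to the right, with CD4 changes of 1.23 to 2.52, and Jun lies at the upper left of the C57BL/6 panel, at -0.57 in CD4 and 1.07 in CD8 cells.

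Within groups, replicates often stood high or low in several of these genes at once. Each library's log2 level was taken as its deviation from the mean of its own group, which removes every difference between groups, and correlated over the 18 libraries. Egr1, Egr2 and Egr3 moved together, with r from 0.59 to 0.73 in their 3 pairs and 0.65 to 0.69 without the 2 libraries farthest out. Fos, Fosb, Jun, Junb and Ier2 formed another block, with r from 0.53 to 0.89 in 10 pairs and 0.20 to 0.79 without 2 libraries. Fos and Junb were the closest, at r of 0.89, Spearman's rho of 0.82, and 0.79 without 2 libraries. Between the blocks r ran from -0.44 to 0.49 in 15 pairs. The blocks were read from these same values and are a description, and the points share depth and scaling within each library. Since each mouse gave both cell types according to the design, the 18 libraries are not independent points.

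Single libraries differed in how many of the 10 genes stood above their group mean. In C57BL/6 CD8 replicate 2 it was all 10, and in zinc-fed pMT-10 CD4 replicate 2 it was 9 of 10. In zinc-fed pMT-10 CD8 replicate 2 it was 7 of 10, with Fos 1.63 above on the log2 scale, and in CD8 replicate 3 of pMT-10 without zinc also 7. The other libraries ran from 1 of 10, in zinc-fed pMT-10 CD4 replicate 1, to 6 of 10. In groups of 3, a high library places others below the mean. The same library that gave Fos 114 CPM also gave the highest CD8 levels of Jun, at 439 CPM, Junb, at 713 CPM, and Ier2, at 165 CPM, while its Egr1 level of 116 CPM was the lowest of its group.

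**Figure D4:**
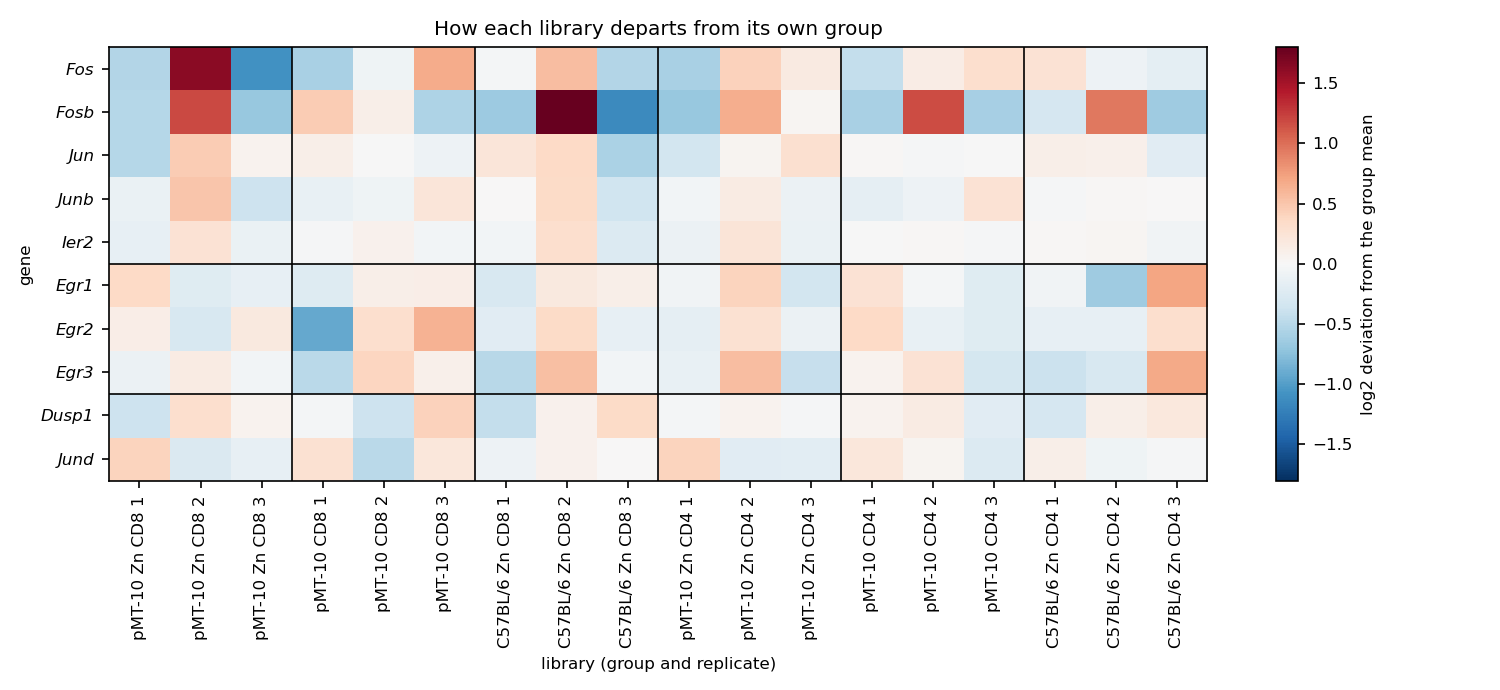
Log2 deviation of each library from the mean of its own group (colour, red above and blue below) for the 10 genes (rows, ordered by the blocks named in the text) in the 18 libraries (columns, by group). Fos reaches 1.63 in zinc-fed pMT-10 CD8 replicate 2, and the rows of Egr1, Egr2 and Egr3 often share their colour.

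The genes outside the 10 with the most similar pattern are given for Egr1, Dusp1, Junb and Jun, by Pearson's r of log2 CPM over the 18 libraries, as a description that also reflects the 6 groups. Egr1 ran most closely with Il21r (r of 0.93), the IL-21 receptor, which averaged 465 CPM in zinc-fed pMT-10 CD4 libraries, against 239 CPM without zinc and 279 CPM in C57BL/6. It was followed by Tpi1 (0.91), a glycolytic enzyme, and Zap70 (0.89), the kinase of the T cell receptor. Dusp1 ran with Foxp3 (0.96), the lineage factor of regulatory T cells, and with Ikzf4 (0.96) and Osgin1 (0.96). Foxp3 averaged 6.37, 3.69 and 3.87 CPM in CD8 libraries of zinc-fed pMT-10, pMT-10 without zinc and C57BL/6 mice, and 963, 1570.1 and 1656 CPM in their CD4 libraries. Dusp1 was lowest where Foxp3 was lowest among the CD4 groups, and the part of regulatory T cells in its level was not tested. Junb ran with Coro7 (0.91), Gatsl3 (0.87) and Trim24 (0.87), and Jun with Epm2aip1 (0.84), Gstm2 (0.81) and Snrnp70 (0.80).

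The other genes of the pathway were read from 7 lists, of which up to 4 called genes each are named, those with the largest change. Values in CD4 cells are log2 fold changes of zinc-fed pMT-10 over C57BL/6. The counts stand beside 9.29% of all genes higher and 9.4% lower, and no test of a list was made. Of 15 other AP-1 and bZIP genes tested, 4 were higher and 1 lower. Jdp2, a Jun dimerization partner that represses AP-1, rose by 2.15, Batf, an AP-1 partner of effector T cells, by 1.33 and Fosl2 by 1.14, while Bach2, a repressor that competes at AP-1 sites, stood at -1.84. Of 30 other immediate early and early response genes 6 were higher and 7 lower, led by the orphan nuclear receptor Nr4a2 (3.29), the GTP-binding protein Gem (3.13), Klf4 (-2.45) and Nr4a3 (1.85). Of 12 Egr partners and T cell receptor targets 4 were higher and 1 lower. Nab1, a corepressor that binds Egr proteins, averaged 710.4 CPM in zinc-fed pMT-10 and 165 CPM in C57BL/6, a log2 fold change of 2.11, with Tnfrsf9 at 1.04, Nfatc2 at 0.83 and Dgka, which Egr2 is known to regulate in anergic T cells, at -1.31.

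The kinases and brakes of the pathway were read in the same way in CD4 cells, beside 18.7% of all genes called. Of 23 MAP kinase cascade genes 1 was higher, Nras (0.62), and 1 lower, Rasa2 (-2.15). Of 14 phosphatases and feedback inhibitors 2 were higher and 2 lower. Dusp6, the phosphatase of ERK, averaged 96.5 CPM in zinc-fed pMT-10 and 24.7 CPM in C57BL/6, a log2 fold change of 1.97, and Spred1 rose by 0.92, while Dusp7 and Dusp2 stood at -0.83 and -0.50. Of 11 serum response factor, ternary complex and CREB genes 2 were higher, Srf (0.67) and Elk3 (0.44), and none was lower. Of 10 heat shock genes edgeR and DESeq2 each called 0, and 2 had an unadjusted p under 0.05. List medians ran from -0.20 for heat shock genes to 0.14 for the feedback genes, beside -0.05 over all genes. Against pMT-10 without zinc, log2 fold changes of genes named above were 3.40 for Nr4a2, 2.66 for Gem, 2.24 for Nab1, 1.73 for Dusp6, 1.71 for Jdp2 and -1.41 for both Bach2 and Dgka, each called.

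In CD8 cells the lists stand beside 8.81% of all genes called against C57BL/6, with 5.68% higher. In these cells 3 of the 15 AP-1 and bZIP genes were higher and none lower, Maf (2.43), Jdp2 (1.51) and Batf (0.91). Of the 30 early response genes 8 were higher and 3 lower, led by Ier5l (4.31, from 2.35 CPM in zinc-fed pMT-10 and 0.114 CPM in C57BL/6), Nr4a2 (3.28), Trib1 (3.11) and Gem (1.49). Of the 12 Egr partners and receptor targets 3 were higher, Tnfrsf9 (1.34), Irf4 (1.26) and Nab1 (0.68), with none lower, although Egr1, Egr2 and Egr3 themselves were not called. Map3k5 alone was higher among the cascade genes (0.81). Of the feedback genes 1 was higher and 4 lower, among them Dusp7 (-0.85) and Spred2 (-0.78), with Dusp14 at 1.02 CPM in zinc-fed pMT-10 and no read in C57BL/6, and Dusp3 with no read in zinc-fed pMT-10 and 1.30 CPM in C57BL/6. Mkl1, a serum response factor coactivator, was lower (-0.48). Of 10 heat shock genes edgeR called 0 and DESeq2 called 1, and 2 had an unadjusted p under 0.05. List medians ran from -0.22 to 0.12, beside 0.00 over all genes. Against pMT-10 without zinc, log2 fold changes were 3.40 for Maf, 3.32 for Nr4a2, 2.23 for Gem, 1.87 for Trib1, 1.86 for Jdp2, 1.66 for Irf4 and 1.10 for Tnfrsf9, each called.

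**Figure D5:**
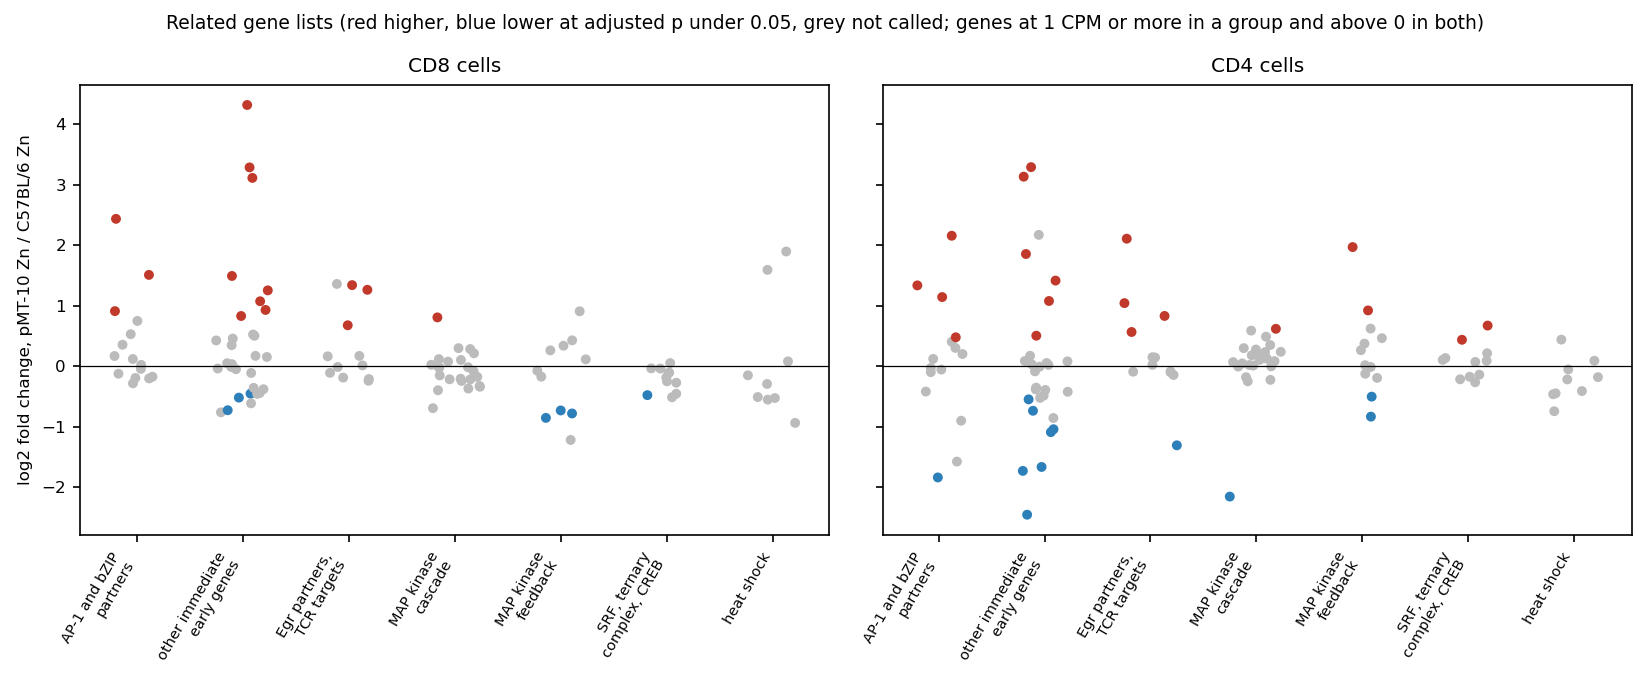
Log2 fold change of zinc-fed pMT-10 over zinc-fed C57BL/6 for the genes of 7 related lists in CD8 cells (left) and CD4 cells (right); each point is a gene, red called higher, blue called lower and grey not called, limited to genes at 1 CPM or more in a group and above 0 in both. Most genes of the MAP kinase cascade list lie near 0, while Gem and Nr4a2, among the other immediate early genes, stand at 3.13 and 3.29 in CD4 cells.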

How the data were processed

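Bone marrow CD4 and CD8 T cell RNA was read in 18 libraries with an Ion AmpliSeq whole-transcriptome panel. The authors deposited raw read counts per amplicon with no scaling, which the files show as whole numbers with differing totals. The genome build is mm10, per the submitters' processing notes, and which aligner and counter were used is not given in the sources used here. Intervals and p-values measure the spread between these libraries. No molecular identifiers are named.

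Counts were filtered with filterByExpr (minimum count 10), scaled by TMM and modelled with edgeR 4.0.16 (R 4.3.3) using the robust quasi-likelihood method, with 6 group means over 18 libraries. Benjamini-Hochberg adjusted p-values run over all 11316 genes tested, and 0.05 was the threshold. Fold changes are log2 values with the SE taken from the F statistic. Replicate numbers follow record order and pair nothing. Alternatives were DESeq2 1.42.0, DESeq2 size factors, library size alone, no filter, smaller fits, leaving out each library and, chosen after seeing the data, a block of adjacent title numbers. The steps were tested on simulated counts. The 10 genes and all lists were chosen with earlier results of these data known. All 10 are named, with up to 4 called genes per related list and the 3 genes most alike to each of 5. Those most alike to Fos are not reported here.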

Additional observations from a re-analysis of the deposited data

Results flagged for a closer look

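The change under induced IL-10 differed between CD8 and CD4 cells, by edgeR's test of the difference itself, in 8 instances. Of all genes, this test called 5.49% against C57BL/6 and 3.78% against pMT-10 without zinc. Against zinc-fed C57BL/6 mice the CD8 change exceeded the CD4 change for Jun by 1.63 (adjusted p = 0.00515), for Ier2 by 1.01 (adjusted p = 0.00823) and for Dusp1 by 1.51 (adjusted p = 0.0125), all on the log2 scale. It was below the CD4 change for Egr1 (-1.60, adjusted p = 0.0145) and Egr3 (-1.61, adjusted p = 0.0345). Against pMT-10 mice without zinc it was below for Egr1 (-1.78, adjusted p = 0.0109) and Egr2 (-2.35, adjusted p = 0.0245) and above for Ier2 (0.84, adjusted p = 0.0308). The comparisons share the zinc-fed pMT-10 libraries. In 12 fits that each left out 1 library, the Egr3 call against C57BL/6 held in 3. Against pMT-10 without zinc the Egr2 call held in 6 of 12 and the Ier2 call in 4 of 12, and the other 5 calls held in all 12.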

How the results depend on the processing

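No sign of a called value was reversed in any alternative. In CD4 cells against C57BL/6 the 5 calls became 7, with Fos and Jun, without the filter and in the CD4-only fit. With library size alone they became 6, with Jun. Of all genes 2262, 2738 and 2279 were then called, instead of 2115. The 5 calls of the interaction against C57BL/6 became 6 with DESeq2 or its size factors, with Egr2, and without the filter, with Fos. There 1030, 632 and 1055 of all genes were called, instead of 621. With DESeq2, Jun was joined by Dusp1 among the calls in CD8 cells against C57BL/6, giving 2 instead of 1. Of all genes 1384 were called there, instead of 997. With no filter on low counts Fos was added, which gave 2 calls in CD8 cells against pMT-10 without zinc and 1 call between the control groups in each cell type, and together with Jun gave 5 instead of 3 for the interaction against pMT-10 without zinc. In the CD8-only fit 0 genes were called against pMT-10 without zinc (DESeq2 called 1, and 3 had an unadjusted p under 0.05 in the fit to all libraries). The cause of these shifts was not tested. Leaving out 1 library gave 4 to 5 calls in CD4 cells against C57BL/6 and 3 to 4 against pMT-10 without zinc. In CD8 cells it gave 1 to 2 and 0 to 1, and between controls 0. Of all genes 1377 to 2160, 1373 to 2103, 587 to 920, 565 to 755 and 7 to 13 were then called, in the same order. For CD8 over CD4 cells these fits gave 4 to 6 calls in zinc-fed pMT-10, 1 to 2 in pMT-10 without zinc and 3 to 4 in C57BL/6. Of all genes 2238 to 3008, 1805 to 2029 and 1935 to 2203 were called there. For the interaction they gave 4 to 6 against C57BL/6 and 1 to 4 against pMT-10 without zinc. Of all genes 255 to 837 and 133 to 693 were called in these.

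Scaling by library size alone moved the median of all genes by -0.11 and -0.15 in CD4 cells against C57BL/6 and pMT-10 without zinc, and by 0.16 and 0.18 in the 2 interactions. Genes higher and lower were then 831 and 1448 instead of 1051 and 1064, 770 and 1688 instead of 1061 and 1064, 648 and 120 instead of 386 and 235, and 537 and 76 instead of 276 and 152. In CD8 cells against C57BL/6 they were 731 and 245 instead of 643 and 354, and for CD8 over CD4 cells 1845 and 1354 instead of 1512 and 1666 in zinc-fed pMT-10 and 750.0 and 1673 instead of 1012 and 1446 without zinc. Over all genes, calls between the control groups were 16 in CD4 and 11 in CD8 cells, with 83 and 107 without the filter and 33 and 42 with DESeq2. CD8 calls were 997 and 876 against C57BL/6 and pMT-10 without zinc, with 613 and 559 in the CD8-only fits. For the interactions they were 621 and 428, with 1030 and 799 with DESeq2, 1055 and 847 without the filter, and 410 against C57BL/6 in the smaller fit. No label ties libraries to a mouse, and as an alternative chosen after seeing the data CD4 and CD8 libraries with adjacent title numbers were taken as a replicate block. Over 11316 genes the deviations of the 9 such pairs correlated at r of -0.03 to 0.18, with 1 pair over 0.1. Of 9 CD8 libraries, 5 correlated best with their neighbour, and the main fits did not take the numbers as pairs. Over the 10 genes alone, r of such pairs was 0.85, 0.78 and 0.79 in C57BL/6. It was 0.78, 0.44 and -0.34 in zinc-fed pMT-10 and -0.34, 0.12 and 0.53 in pMT-10 without zinc. The other pairs of a CD8 and a CD4 library ran from -0.74 to -0.13, -0.81 to 0.63 and -0.67 to 0.51 in the same order. Whether neighbours came from 1 mouse was not tested. With the replicate block 6, 2 and 4 of the 10 genes were called for CD8 over CD4 cells in zinc-fed pMT-10, pMT-10 without zinc and C57BL/6. Of all 11316 genes 3003, 2259 and 2344 were called there. For the interactions against C57BL/6 and pMT-10 without zinc this block called 5 and 3 of the 10, beside 687 and 433 of all genes. It added Fos in zinc-fed pMT-10 (1.09, adjusted p = 0.0393) and, against pMT-10 without zinc, called Jun (0.95, adjusted p = 0.0253) and not Egr2 (-2.26, adjusted p = 0.0745). Depth limits Fosb, at 3 to 27 reads per library, and Jund, at 28 to 94. It also limits Egr2 outside the zinc-fed pMT-10 CD4 libraries, at 18 to 70 reads.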
